A study of Mus musculus with 10 samples.

Results

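Chondroitin sulfate and lactosylceramide are glycans that are assembled in the Golgi by chains of enzymes that add sugar or sulfate groups step by step. Of the 52550 genes in the count table, 10 from these pathways are described here: Xylt1, Chpf, Chpf2, Chsy1, Csgalnact1, Csgalnact2, Chst11 and Srgn on the chondroitin sulfate side, and B4galt5 and B4galt6 on the lactosylceramide side. They were found by symbol, through their Ensembl identifiers. Chpf and B4galt6 were selected on their measured levels, which fell with doxycycline (DOX) in MLL-AF9-i139 libraries of this series, so this response is given for them as a description with no test. The other 8 genes were chosen for their place in the same pathways. All 10 had at least 10 counts in total and counted as measured, from 471 counts over the 10 libraries for Csgalnact1 to 303695 for Srgn.

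MLL-AF9 cells are mouse bone marrow cells, enriched for hematopoietic stem and progenitor cells (HSPCs) of wild-type C57BL/6 mice aged 8 to 20 weeks, that were transformed with a retrovirus encoding the leukemia fusion oncogene MLL-AF9. They then received a retrovirus for the repressor tetR-KRAB and a lentiviral vector from which DOX induces miR-139 (MLL-AF9-i139) or eGFP (MLL-AF9-ieGFP); the protocol in the labels describes the repressor and vector steps for the miR-139 vector. RNA was sequenced from 3 MLL-AF9-i139 clones, each without DOX and with DOX at 5 µg/mL, for 48 h in clones 1 and 2 and for 72 h in clone 3, and no time is given for their untreated cultures. MLL-AF9-ieGFP is 1 clone, sequenced without and with DOX at 48 h and at 72 h, so its 2 libraries per condition are time points and not separate clones. In MLL-AF9-i139, time and clone cannot be told apart.

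A chondroitin sulfate chain starts with a linker that a xylosyltransferase begins on a serine of a core protein. A first N-acetylgalactosamine is then added, polymerases extend the chain by alternating glucuronic acid and N-acetylgalactosamine, and sulfotransferases modify it. In myeloid cells the main core protein is serglycin, which packs granule proteases into secretory granules. Lactosylceramide, made by adding galactose to glucosylceramide, is the branch point from which gangliosides and other glycosphingolipids are built.

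Library totals lay between 35133308 and 47089725 counts, and 3 counts corresponded to 0.0637 to 0.0854 CPM, the count scaled by library size. Libraries of the same condition differed by more than sampling noise (chi-square per degree of freedom of 13.5 to 112). The myeloid progenitor markers fixed for these cells summed to 2650 to 5750 CPM over the 10 libraries, and 7 of the 9 had a mean of at least 1 CPM. Itgam and Cd34 did not, with 6 and 37 counts in total. The sum joins opposite changes in MLL-AF9-i139. Means without and with DOX were 536 and 1410 CPM for Mpo and 88.4 and 227 CPM for Fcgr3. They were 395 and 321 CPM for Ly6c2 and 442 and 347 CPM for Prtn3, both lower with DOX in clones 1 and 2 only. Mir139 was at 0 in all 10 libraries, so induction of miR-139 could not be checked in these counts. The paper reports from miRNA qPCR that DOX induced miR-139 in MLL-AF9-i139 clones. Pde2a, the host gene of Mir139, had 1 count, in treated clone 3. From other RNA-seq libraries the paper reports unchanged Pde2a expression in MLL-AF9 cells against wild-type HSPCs. Among protein-coding genes inside another gene without a shared exon base, 98.1% were at 0 counts, against 24.9% of those overlapping no other gene. Mir139 lies inside Pde2a but is not protein-coding, and the cause of its 0 counts was not tested.

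The sequences of the induced microRNA show which letters a 3′ UTR has to hold for a seed match. Both come from RefSeq on GRCm38.p6, with the seed (bases 2 to 8) in capitals, at chr7:101475382-101475403 (+) and chr7:101475418-101475439 (+).
miR-139-5p: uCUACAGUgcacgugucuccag
miR-139-3p: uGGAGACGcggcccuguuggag

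The longest annotated 3′ UTR of each gene was searched on the transcribed strand for ACTGTAG or CTGTAGA (miR-139-5p) and CGTCTCC or GTCTCCA (miR-139-3p); in each pair the 2 words overlap in an 8-base match. Over 14445 genes, 12.5% held ACTGTAG, 15.2% CTGTAGA, 3.74% CGTCTCC and 14.0% GTCTCCA. The 6 matches below, from 5 of the genes, lie in the last exon of their genes, on GRCm38, and are printed because they fall in genes whose levels are described here; capitals mark the match.
Chpf, chr1:75474671-75474700 (-), exon 4 of 4: tgggagctgggCTGTAGAtggattgttgga
Xylt1, chr7:117667703-117667732 (+), exon 12 of 12: gacctcggccgACTGTAGgacagtggagag
Srgn, chr10:62494227-62494256 (-), exon 4 of 4: tgtaactcactCTGTAGAccaggatggcta
B4galt5, chr2:167300473-167300502 (-), exon 9 of 9: aacctccggtcACTGTAGcccctcttctct
B4galt5, chr2:167299425-167299454 (-), exon 9 of 9: ggttccgcccgGTCTCCAccctccctccgc
Chst11, chr10:83192041-83192070 (+), exon 3 of 3: actgcaacactGTCTCCAaggtgtccttgt

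Chpf has 1 miR-139-5p match in a 3′ UTR of only 401 bases, and 3.65% of 1205 genes with a 3′ UTR of like length hold one. B4galt6 has 2 miR-139-5p matches, both of 8 bases and not shown here, in 3722 bases. Of genes of like length, 13.9% hold at least 2 matches, with those short of 8 bases included. The share with 2 matches of 8 bases was not computed. The single miR-139-5p matches of Xylt1, Srgn and B4galt5 are more common for their UTR lengths, with shares of 64.5%, 16.0% and 39.0%. The miR-139-3p matches of Chst11 and B4galt5 have shares of 36.7% and 27.1%. Chpf2, Chsy1, Csgalnact1 and Csgalnact2 hold none of the words in this window. A match is a property of the sequence and was not tested as a site.

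Chpf encodes chondroitin polymerizing factor, which works together with chondroitin synthases to extend the chain (ENSMUSG00000032997, chr1:75474569-75479307, minus strand). Its level, in CPM normalized with the TMM method, was 18.5, 18.9 and 8.59 in untreated MLL-AF9-i139 clones 1, 2 and 3, and 3.57, 7.35 and 7.54 in the same clones with DOX. The 3 treated libraries were all below the 3 untreated ones, as for 12.8% of the 19223 genes tested. Untreated clone 3 lay just above the highest treated library. The mean was 15.3 ± 5.82 without and 6.15 ± 2.24 with DOX (SD, n = 3), a fitted log2 fold change of -1.30 (SE 0.37). The log2 fold change was -2.35 in clone 1, -1.35 in clone 2 and -0.19 in clone 3. Clone 3 thus started low and hardly moved. The fitted log2 fold change was -1.76 without clone 3, -0.88 without clone 1 and -1.28 without clone 2. The counts behind these levels were 901, 827 and 339 without and 171, 289 and 297 with DOX.

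B4galt6 encodes 1 of the lactosylceramide synthases (chr18:20684599-20746404, minus strand). Without DOX its level was 67.6, 70.3 and 16.4 CPM in clones 1, 2 and 3, and with DOX it was 20.4, 25.1 and 14.6 CPM. Untreated clone 3 was lower than treated clones 1 and 2, so the groups overlapped. The means were 51.4 ± 30.4 and 20.0 ± 5.23 CPM (SD, n = 3), and the fitted log2 fold change was -1.35 (SE 0.48), or -1.14 (SE 0.27) with the clone as a block. By clone it was -1.73, -1.49 and -0.16, and the fit gave -1.58 without clone 3, -1.13 without clone 1 and -1.25 without clone 2. As for Chpf, the difference was carried by clones 1 and 2.

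In MLL-AF9-ieGFP, which the choice of genes did not use, neither gene was lower with DOX. Chpf was at 19.0 CPM at 48 h and 16.3 CPM at 72 h without DOX, and at 19.5 and 21.5 CPM with DOX, where the fitted log2 fold change was 0.21 (SE 0.38, edgeR adjusted p = 1). B4galt6 was at 51.4 and 31.5 CPM without and at 66.9 and 38.8 CPM with DOX, a log2 fold change of 0.35 (SE 0.55, edgeR adjusted p = 1). These 4 Chpf values resemble untreated clones 1 and 2 of MLL-AF9-i139, whereas B4galt6 separated by time: at 72 h it was lower than at 48 h by a log2 difference of -0.70 without and -0.79 with DOX, each from 1 library per time. Chpf did not show this, with log2 differences of -0.22 and 0.14. Clone 3 is the clone with the 72 h treatment, and the part of time in its low B4galt6 was not tested.

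**Figure D1:**
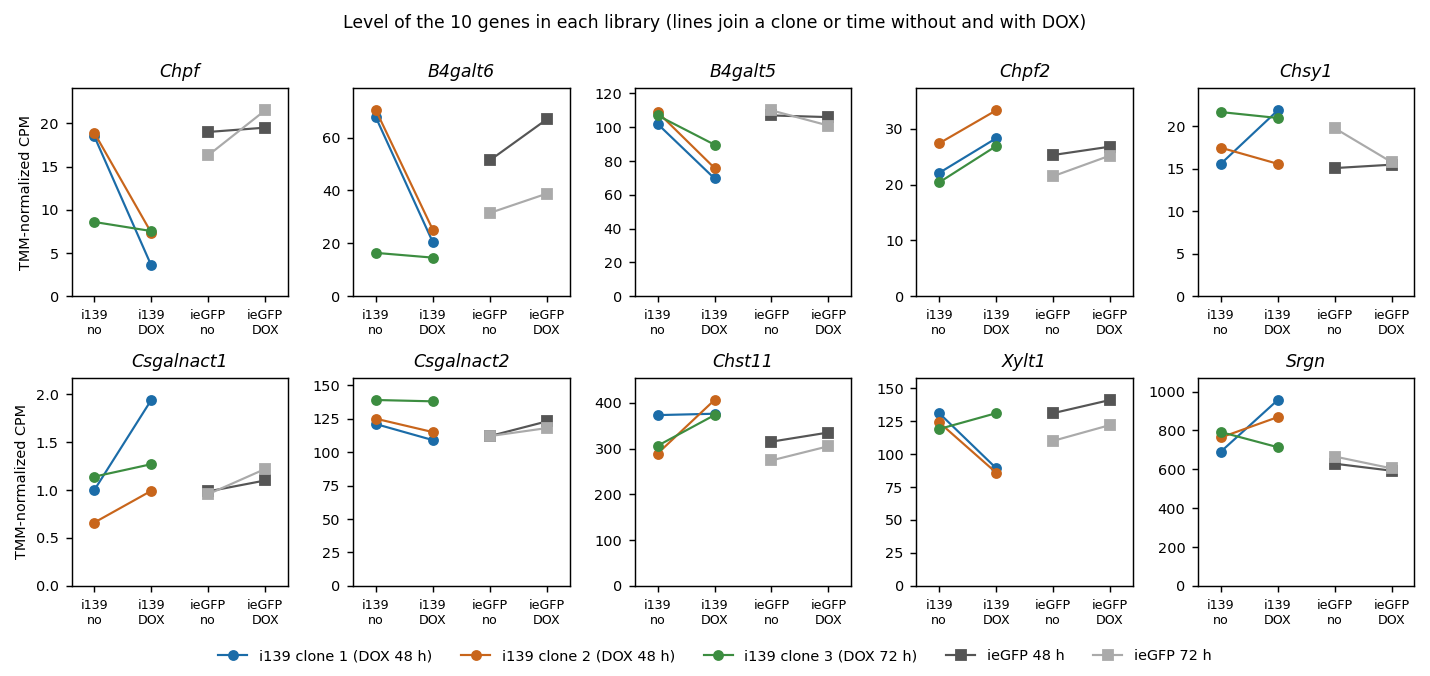
TMM-normalized CPM of the 10 genes (vertical axes from 0) in the 10 libraries, with lines that join a clone of MLL-AF9-i139 (circles) or a time point of MLL-AF9-ieGFP (squares) without and with DOX. Chpf and B4galt6 drop in clones 1 and 2, while in clone 3 they go only from 8.59 to 7.54 and from 16.4 to 14.6 CPM, and B4galt5 is lower with DOX in each clone.

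The untreated constructs were compared to see where the genes started. For Chpf the fitted log2 difference of untreated MLL-AF9-i139 to untreated MLL-AF9-ieGFP was -0.21 (SE 0.35), and it was 0.06 without clone 3. For B4galt6 it was 0.31 (SE 0.50). It was 0.71 (SE 0.24) without clone 3, 0.06 without clone 1, 0.02 without clone 2, 0.67 without the 48 h MLL-AF9-ieGFP cultures and 0.01 without the 72 h ones. Both are descriptions, since these libraries also served the choice of the 2 genes. Of the other 8 genes, 0 were called (edgeR, each adjusted p = 1), where 9 of 20269 genes (0.0444%) were called over the whole table. With 3 clones against 1, clone and construct cannot be told apart.

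**Figure D2:**
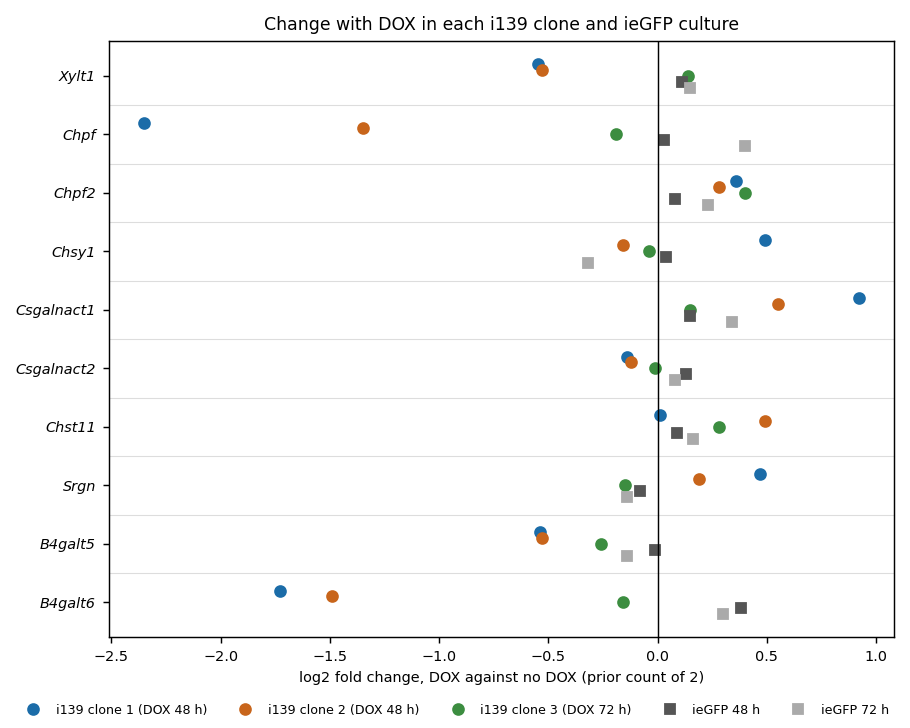
Log2 fold change with DOX (horizontal axis, prior count of 2) of each gene in each MLL-AF9-i139 clone (circles) and each MLL-AF9-ieGFP culture (squares). Clone 3 lies between the other clones and 0 for Chpf, B4galt5 and B4galt6, and the ieGFP cultures lie between -0.32 and 0.40 for all 10 genes.

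B4galt5, the other lactosylceramide synthase, moved in the same direction as B4galt6 but less (chr2:167298444-167349183, minus strand). It was at 102, 109 and 107 CPM in untreated clones 1 to 3 and at 69.7, 75.9 and 89.7 CPM with DOX, with means of 106 ± 3.91 and 78.4 ± 10.2 CPM (SD, n = 3). The groups did not overlap, and unlike Chpf and B4galt6 the untreated clones lay close together. Of the 8 genes not selected on this contrast, B4galt5 was the 1 gene whose groups did not overlap, a pattern that 12.8% of the 19223 genes tested showed towards lower and 12% towards higher levels. The log2 fold change was -0.54, -0.53 and -0.26 by clone and -0.42 (SE 0.11) in the fit, with an edgeR adjusted p = 0.120. It was called lower with the clone block (-0.43, SE 0.09, adjusted p = 0.0317), as it was without clone 3 (-0.52, adjusted p = 0.00738) and by DESeq2 (adjusted p = 0.0305). Over all alternatives its adjusted p ranged from 0.00422 to 0.742. In MLL-AF9-ieGFP it was at 107 and 110 CPM without and 106 and 101 CPM with DOX, a log2 fold change of -0.07 (SE 0.12, edgeR adjusted p = 1).

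Xylt1, the xylosyltransferase that begins the linker, separated the clones (chr7:117380979-117673580, plus strand). Its level was 131, 124 and 119 CPM without DOX and 89.3, 85.9 and 131 CPM with DOX. Clones 1 and 2 were lower with DOX by log2 fold changes of -0.55 and -0.53, and clone 3 was higher by 0.14, so the groups overlapped. The fit over 3 clones gave -0.28 (SE 0.16, edgeR adjusted p = 0.369), and 0.195 was the adjusted p with the clone block. Without clone 3 it was called lower, at -0.52 (SE 0.09, adjusted p = 0.00537), with a range of 0.00537 to 0.849 over all alternatives. In MLL-AF9-ieGFP the level was 131 and 110 CPM without and 141 and 122 CPM with DOX.

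Among the polymerases, Chpf2 went the opposite way from Chpf (chr5:24586741-24594556, plus strand). Chpf2 encodes a chondroitin chain-extending enzyme related to Chpf. It was at 22.1, 27.4 and 20.4 CPM without DOX and at 28.3, 33.3 and 26.9 CPM with DOX, and was higher with DOX by log2 fold changes of 0.36, 0.28 and 0.40 in the 3 clones. The levels overlapped between groups only because the clones differed in their starting level. Without the block the log2 fold change was 0.35 (SE 0.15, edgeR adjusted p = 0.231), and in the fit with the clone block it was called higher (0.36, SE 0.09, adjusted p = 0.0442), with a range over all alternatives of 0.0319 to 0.742. In MLL-AF9-ieGFP it was at 25.3 and 21.5 CPM without and at 26.8 and 25.2 CPM with DOX, a log2 fold change of 0.15 (SE 0.17, edgeR adjusted p = 1). The difference between the DOX responses of the constructs was 0.19 (SE 0.22, edgeR adjusted p = 0.789), so a change beyond that in MLL-AF9-ieGFP was not shown. Other genes, their introns included, span 58.7% of its exon bases, mainly Smarcd3 on the opposite strand (21 to 124 counts per library). The handling of shared reads is not given in the sources used here.

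Chsy1, a chondroitin synthase that adds both sugars of the chain, had no common direction (chr7:66109515-66173798, plus strand). It was at 15.6, 17.5 and 21.7 CPM without and 21.9, 15.6 and 21.0 CPM with DOX, and the log2 fold changes were 0.49, -0.16 and -0.04 by clone. The fitted change was 0.11 (SE 0.18, edgeR adjusted p = 0.775). In MLL-AF9-ieGFP it was at 15.1 and 19.8 CPM without and 15.5 and 15.8 CPM with DOX, close to the range in MLL-AF9-i139. Its counts are uncertain, because genes on the opposite strand span 83.79% of its exon bases, their introns included. Gm26827, which had 0 counts, is among them.

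The 2 enzymes that add the first N-acetylgalactosamine differed widely in level per length, and neither was called. Csgalnact2 (chr6:118107452-118139140, minus strand) was at 121, 125 and 139 CPM without and 109, 115 and 138 CPM with DOX, a log2 fold change of -0.07 (SE 0.12, edgeR adjusted p = 0.764). Csgalnact1 (chr8:68356781-68735146, minus strand) was low, at 1.00, 0.661 and 1.14 CPM without and 1.94, 0.992 and 1.27 CPM with DOX. Its log2 fold changes were 0.92, 0.55 and 0.15 by clone and 0.60 (SE 0.34, edgeR adjusted p = 0.347) in the fit. In MLL-AF9-ieGFP both were slightly higher with DOX at each time, Csgalnact2 by log2 fold changes of 0.13 and 0.08 and Csgalnact1 by 0.15 and 0.34, and neither was called (edgeR, adjusted p = 1).

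Chst11 encodes a chondroitin 4-O-sulfotransferase (chr10:82985498-83195900, plus strand). It was at 373, 289 and 306 CPM without and at 376, 406 and 373 CPM with DOX. Treated clone 1 was level with its untreated culture (log2 fold change 0.01), whereas clones 2 and 3 were higher by 0.49 and 0.28. The fitted change was 0.27 (SE 0.12, edgeR adjusted p = 0.245). In MLL-AF9-ieGFP it was at 315 and 274 CPM without and 335 and 305 CPM with DOX, so the cultures differed as much by time as by treatment.

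Srgn encodes the core protein serglycin and had the highest level per length of all 10 genes (chr10:62493833-62527451, minus strand). It was at 691, 764 and 792 CPM without and at 957, 869 and 714 CPM with DOX, so clones 1 and 2 were higher with DOX by log2 fold changes of 0.47 and 0.19 and clone 3 was lower, at -0.15. The fitted change was 0.19 (SE 0.13, edgeR adjusted p = 0.439), while it was 0.35 without clone 3 (adjusted p = 0.0598) and 0.03 without clone 1 (adjusted p = 0.976). The range of the adjusted p over all alternatives was 0.0598 to 0.976. In MLL-AF9-ieGFP it was at 629 and 666 CPM without and 593 and 605 CPM with DOX.

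Of the 8 genes chosen for their pathway, 0 were called with DOX in MLL-AF9-i139 by edgeR without a block, where 12 of 19223 genes (0.0624%) were called and 3959 had an unadjusted p under 0.05. With the clone block 1 was called higher (Chpf2) and 1 lower (B4galt5), where 7.05% of all genes were called higher and 5.33% lower. Without clone 3, 2 were called lower (B4galt5 and Xylt1) and 0 higher, where 10.1% of all genes were called lower and 11.6% higher. DESeq2 called 1 (B4galt5), where it called 8.09% of all genes. These shares are the background against which the calls among 8 genes stand. The fit without a block leaves out the clone pairing, so its 0 calls do not show unchanged levels. In MLL-AF9-ieGFP, 0 of the 10 genes were called by edgeR, DESeq2 or edgeR with a block, where 0 of 20269 genes (0%) were called, 259 had an unadjusted p under 0.05 and DESeq2 called 1.

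The difference between the 2 DOX responses asks what the MLL-AF9-i139 cells did beyond the MLL-AF9-ieGFP cells. For Chpf it was -1.53 (SE 0.50) and for B4galt6 -1.71 (SE 0.71) on the log2 scale, given as descriptions. Of the other 8 genes 0 were called by edgeR, where 1 of 20269 genes (0.00493%) was called and 1859 had an unadjusted p under 0.05; DESeq2 called 82 genes and 0 of the 8. B4galt5 differed by -0.36 (SE 0.16, edgeR adjusted p = 0.538) and Xylt1 by -0.42 (SE 0.24, edgeR adjusted p = 0.609). Without clone 3 of MLL-AF9-i139 3 of the 8 were called: Xylt1 (-0.64, adjusted p = 0.0175), B4galt5 (-0.43, adjusted p = 0.0462) and Srgn (0.47, adjusted p = 0.0435), where 2011 of 19753 genes (10.2%) were called.

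Levels can be compared between genes only per length. Per kilobase of exon, averaged over the 10 libraries, the order was Srgn (331 CPM per kb), Chst11 (60.7), B4galt5 (22.7), Csgalnact2 (22.3), Xylt1 (12.3), B4galt6 (6.94), Chpf2 (4.60), Chsy1 (4.30), Chpf (3.65) and Csgalnact1 (0.221). Srgn, Chst11 and Csgalnact1 stood clear of their neighbours in every library. B4galt5 and Csgalnact2 overlapped, as did B4galt6 with Xylt1, Chpf2, Chsy1 and Chpf, which lay between 2.52 and 12.1 CPM per kb for B4galt6 and between 0.926 and 5.57 for Chpf. The order depends on the length used: divided by the gene body, Csgalnact2, Chpf2 and Chpf came next after Srgn and ahead of B4galt5 and Chst11, while Csgalnact1 stayed last. Which length applies is not settled, since 664 of 677 protein-coding genes inside another gene without a shared exon base were at 0 counts (98.1%), against 24.9% of 11686 genes that overlap no other gene.

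**Figure D3:**
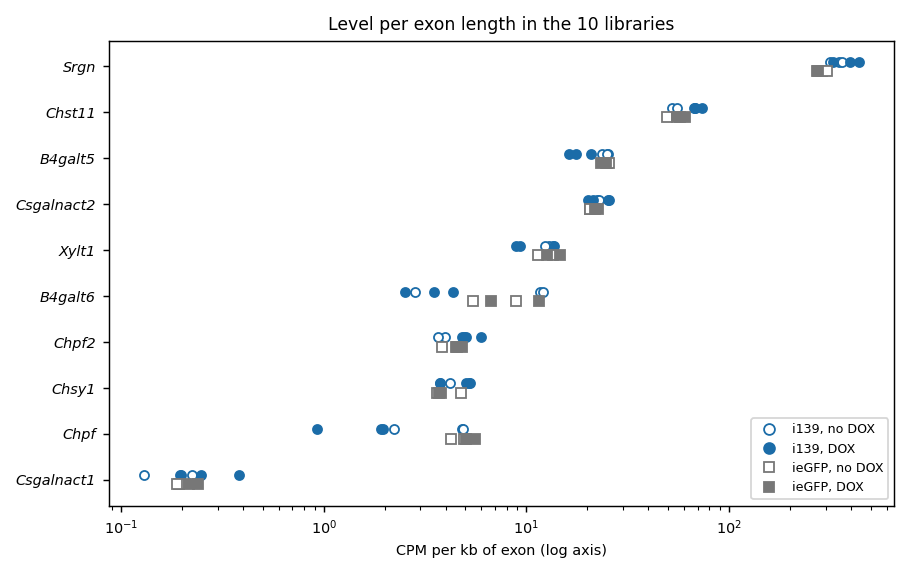
CPM per kilobase of exon (logarithmic horizontal axis) of the 10 genes in the 10 libraries, ordered by mean; circles are MLL-AF9-i139, squares MLL-AF9-ieGFP, filled symbols with DOX. Chpf and B4galt6 spread most within MLL-AF9-i139, from 0.926 CPM per kb and from 2.52 CPM per kb upward.

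The other assembly genes were read by list, first with the clone block. The median log2 fold change over all genes tested was 0.01. With the block, 7.05% of all genes were called higher and 5.33% lower, the background for the list counts below. Of 7 linkage genes tested (median 0.09), 1 was called higher with the clone block: Fam20b, the kinase that phosphorylates the xylose of the linker, with 78.1, 85.0 and 69.7 CPM without and 135, 160 and 82.9 CPM with DOX (log2 fold change 0.67, SE 0.14, edgeR adjusted p = 0.0310). Pxylp1, the phosphatase that opposes it, had the highest CPM of that list, not divided by length (243) and was not called. Of the 4 polymerization genes tested besides Chpf, 1 was called with the block (Chpf2). Of 7 sulfation and epimerization genes (median -0.03), 13 genes for sugar and sulfate donors (median 0.07) and 11 core proteins (median -0.14), 0 were called with or without the block. The highest CPM in these lists, not divided by length, were those of Chst11 (335 CPM), Ugp2, which makes UDP-glucose (91.2 CPM), and Srgn (728 CPM).

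Heparan sulfate synthesis, which uses the same linker, gave 15 genes tested with a median of 0.05. With the block 1 was called lower, Extl3, a glycosyltransferase of chain initiation, at 8.71, 6.41 and 9.10 CPM without and 5.91, 3.87 and 4.88 CPM with DOX (log2 fold change -0.71, SE 0.14, edgeR adjusted p = 0.0297). Its treated libraries were all below the untreated ones, as for 12.8% of all genes tested. The log2 fold changes were -0.56, -0.72 and -0.89 in clones 1 to 3, so clone 3 moved furthest. Over all genes, 5.33% were called lower with the block. Hs2st1, a 2-O-sulfotransferase, had the highest CPM of the list (106).

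In the lipid arm, 13 genes of ceramide supply were tested (median 0.09). Cers1, a ceramide synthase, was called lower with the block at low levels, with 1.80, 0.889 and 1.42 CPM without and 0.397, 0.483 and 0.584 CPM with DOX (log2 fold change -1.46, SE 0.30, edgeR adjusted p = 0.0314), and Cers6 had the highest CPM of the list (530). Of the 9 glycosphingolipid synthesis genes tested besides B4galt6, 2 were called lower with the block, B4galt5 and B3gnt5, which starts the lacto-series chains on lactosylceramide. Over all genes, 5.33% were called lower with the block. B3gnt5 was at 1.6, 0.775 and 1.37 CPM without and at 0.543, 0.254 and 0.737 CPM with DOX (log2 fold change -1.30, SE 0.25, edgeR adjusted p = 0.0289). B4galnt1, which makes complex gangliosides, had the highest CPM of the list (362), with log2 fold changes of -0.04, 0.00 and -0.04 by clone. St3gal5, which makes the ganglioside GM3 from lactosylceramide and is named after its values were seen, had 8 counts in total and was not measured.

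Of the 6 beta-1,4-galactosyltransferases besides B4galt6, 1 was called lower (B4galt5) and 1 higher (B4galt3) with the block. Over all genes, 5.33% were called lower and 7.05% higher. B4galt3 was at 11.5, 12.6 and 11.2 CPM without and at 18.5, 18.4 and 13.8 CPM with DOX (log2 fold change 0.52, SE 0.12, edgeR adjusted p = 0.0387). B4galt1, with the highest CPM of the family (261), had an adjusted p = 0.0502 with the block and a log2 fold change of 0.37.

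Without clone 3 the calls in the assembly lists differed. Of the linkage genes 1 was called higher (Fam20b) and 1 lower (Xylt1), of the donor genes 2 higher and 1 lower, and of the core proteins 1 lower. Of the polymerization genes besides Chpf and of the sulfation genes 0 were called. Of the heparan sulfate genes 2 were called lower, of the ceramide genes 2 higher and 2 lower, and of the glycosphingolipid synthesis genes besides B4galt6 1 lower (B4galt5). Of the beta-1,4-galactosyltransferases besides B4galt6, 2 were called higher and 1 lower. Among all genes, 11.6% were called higher and 10.1% lower without clone 3.

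On the breakdown side the calls were mostly towards higher levels. Of 12 glycosaminoglycan breakdown genes tested, 10 had a log2 fold change above 0 (median 0.36), and with the block 4 were called higher and 0 lower, among them Glb1 and Idua. Of 12 glycosphingolipid breakdown genes, 11 were above 0 (median 0.51), and with the block 5 were called higher and 0 lower, among them Gm2a, Psap and Glb1. The lists share members, Glb1 included, and without the block 0 genes of either list were called. Without clone 3, 6 were called higher and 0 lower in the first list and 9 higher and 1 lower in the second. Over all genes, 7.05% were called higher and 5.33% lower with the block, and 11.6% and 10.1% without clone 3.

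Gm2a, the GM2 ganglioside activator, was at 6.58, 5.02 and 3.62 CPM without and at 19.9, 11.5 and 5.21 CPM with DOX (log2 fold change 1.14, SE 0.21, edgeR adjusted p = 0.0278 with the block). Clone 3 again changed least, and its treated culture lay within the untreated range.

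Psap, the precursor of the saposin activators, rose from 129, 145 and 129 CPM to 288, 281 and 167 CPM (log2 fold change 0.84, SE 0.15, edgeR adjusted p = 0.0271 with the block). All its treated libraries were above all untreated ones, as for 12% of all genes tested. Glb1, the lysosomal beta-galactosidase, had a log2 fold change of 0.47 (SE 0.10, edgeR adjusted p = 0.0348) and Idua, the iduronidase, one of 0.44 (SE 0.11, adjusted p = 0.0421). Gusb, the beta-glucuronidase, and Hexa had the highest CPM of the lists, at 370 and 209, with adjusted p of 0.0645 and 0.0573.

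**Figure D4:**
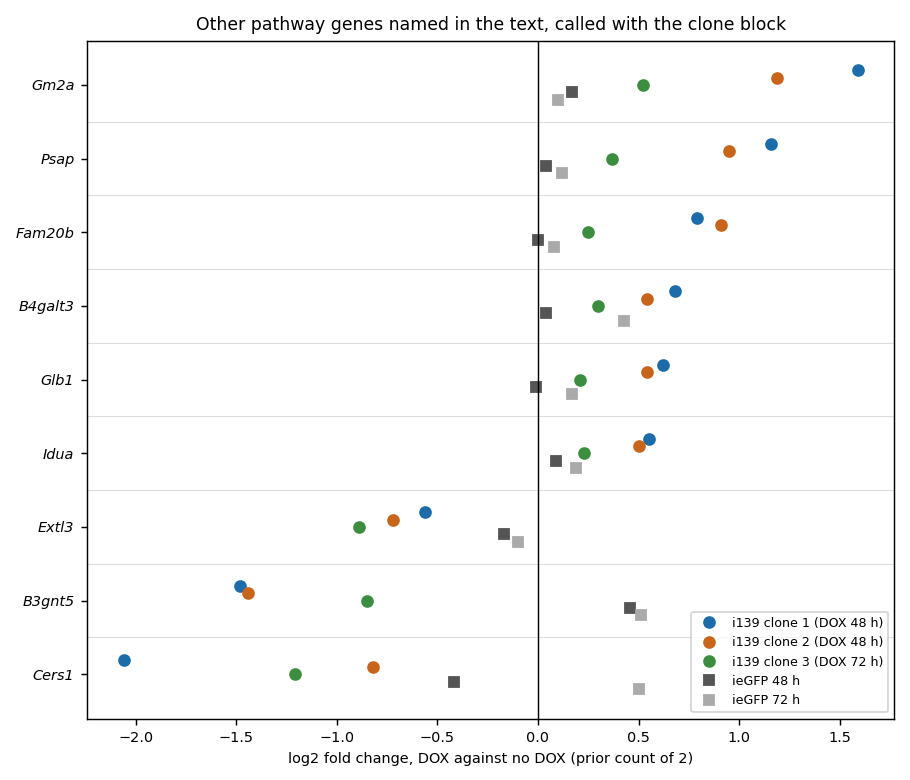
Log2 fold change with DOX (horizontal axis, prior count of 2) in each MLL-AF9-i139 clone (circles) and MLL-AF9-ieGFP culture (squares) for 9 other pathway genes called by edgeR with the clone block and named in the text. The 6 genes called higher have their smallest MLL-AF9-i139 change in clone 3, between 0.21 and 0.52, and the MLL-AF9-ieGFP cultures lie between -0.42 and 0.51.

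Markers of other cell types were read beside these changes, as sums over each fixed list. The 7 monocyte and macrophage markers summed to 16.7, 14.4 and 12.8 CPM in untreated clones 1 to 3 and to 36.2, 30.6 and 12.5 CPM with DOX, with C1qa at 0 and C1qb at 9 counts in total. Their sum was higher with DOX in clones 1 and 2 and not in clone 3. Chpf, B4galt6, Xylt1, Gm2a, Psap, Glb1 and Idua also moved most in clones 1 and 2. Not every gene of the breakdown lists did so. Ccr2 went the other way from the sum, at 1.37, 2.01 and 2.71 CPM without and 0.647, 0.585 and 0.838 CPM with DOX in clones 1 to 3. The 9 mature neutrophil markers summed to 222, 163 and 129 CPM without and to 359, 336 and 191 CPM with DOX in MLL-AF9-i139, and to 282 to 398 CPM in MLL-AF9-ieGFP. Of these 9, 0 were at 0, but only 6 had a mean of at least 1 CPM, and Mmp8, Mmp9 and Retnlg did not. In MLL-AF9-i139 the means of Ngp (59.2 and 149 CPM) and Cxcr2 (1.05 and 22.3) were higher with DOX. The mean of S100a9 was 51.2 CPM without and with DOX. The 9 mast cell and basophil markers summed to 15.2 to 22.7 CPM without and 19.3 to 23.4 CPM with DOX in MLL-AF9-i139, with Cma1, Tpsb2, Tpsab1 and Fcer1a at 0. This sum joins opposite changes. Mcpt8 was higher with DOX in each clone (means of 8.99 and 14.5 CPM), while Hdc (5.5 and 3.05) and Ms4a2 (1.67 and 0.97) were lower in each clone. T cell, B cell, erythroid, megakaryocyte and stroma markers summed to at most 0.689, 1.51, 2.71, 2.98 and 0.251 CPM. The 5 markers of the MLL-AF9 program summed to 343, 339 and 376 CPM without and to 251, 297 and 308 CPM with DOX. The part of such cells or states in the changes of glycan genes was not tested, and in these bulk cultures fewer cells of a type and less RNA per cell cannot be told apart.

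The genes whose log2 CPM ran most like that of Chpf over the 10 libraries, among 8693 genes with a mean log2 CPM of at least 3, were Pja1 (Pearson's r = 0.987), Sac3d1 (0.973), Adprhl2 (0.959), Acly (0.956) and Kcnab2 (0.954). Like Chpf, Pja1 was lower with DOX in each clone, at 35.7, 37.3 and 30.2 CPM without and 23.7, 28.7 and 28.2 CPM with DOX, but over a far smaller span. For B4galt6 they were Elp3 (0.948), Ptgr1 (0.947), Limd1 (0.937), Ftl1 (0.932) and Chchd6 (0.928). Ftl1, the ferritin light chain, shared the low values of clone 3 and of the 72 h cultures, with 893, 984 and 543 CPM in untreated clones 1 to 3 and 921 and 672 CPM in untreated MLL-AF9-ieGFP at 48 h and 72 h. Chpf and B4galt6 themselves had r = 0.794. The 10 points share clones and treatment, so these values describe the libraries only.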

How the data were processed

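The authors mapped reads of rRNA-depleted RNA to GRCm38 with STAR 2.5.3e, counted them per gene with featureCounts 1.6.0 on GENCODE M15 and deposited raw counts, per the methods and the processing notes. FastQC 0.11.8 and MultiQC served quality control, and DESeq2 1.22.2 their own tests. The strand and overlap settings are not given in the sources used here. The 2 deposited tables were checked against each other and differed in 0 values, and 14 further columns of per-sample values were not used. The tables hold 25799 genes at 0 counts, so they precede the authors' removal of rows under 10 counts.

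Members and gene lists were chosen with earlier results of these data known. Groups came from the sample labels. Counts of genes with at least 10 counts in total were tested here with edgeR 4.0.16 (R 4.3.3; TMM, quasi-likelihood test, Benjamini-Hochberg over all genes, threshold 0.05): on the 6 MLL-AF9-i139 libraries for their DOX response, and on all 10 libraries in 1 fit of 4 groups for the other comparisons. Single-clone log2 fold changes use log2 CPM with a prior count of 2. Scripts were tested on simulated counts. Where these held clone effects, edgeR without a block recovered 0% of 200 genes changed by a log2 fold of 1.5. EdgeR with the clone block recovered 92% of them, and 6.6% of its calls were false. P-values from the 6 MLL-AF9-i139 libraries measure the spread between these clones. Those from all 10 libraries use 1 spread shared by the 4 groups. It joins the MLL-AF9-i139 clones with the 48 h and 72 h cultures of 1 MLL-AF9-ieGFP clone.

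Clone numbers mark the same clone without and with DOX. The deviations of same-clone libraries from their group means correlated at 0.356, 0.269 and 0.393, and those of different clones at -0.297 to -0.0382. Deviations from a group mean cancel within the group. Positive values for the same clone therefore push those of different clones to negative, and the latter are not separate evidence. A fit with the clone as a block is therefore given where it changes a call. Further alternatives were DESeq2 1.42.0, RLE size factors, other count filters, all libraries in 1 fit and leaving out each clone or time.

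Genes named from the pathway lists are those with an adjusted p under 0.05 with or without the block, at most 4 a list by size of change, and the gene with the highest mean CPM; for the likeness to Chpf and B4galt6, the 5 genes with the highest Pearson's r. Some genes of the breakdown lists are counted there but not reported by name here. Cert1 was looked for under its older symbol Col4a3bp. Gene positions, overlaps and 3′ UTRs come from GENCODE M21 on the same build, microRNA sequences from RefSeq. Python 3.11.15 was used for these steps. Intervals of counting error were not computed.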

Additional observations from a re-analysis of the deposited data

Results flagged for a closer look

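For 3 of the 10 genes every MLL-AF9-i139 clone moved one way with DOX and both MLL-AF9-ieGFP cultures the other way. The share of all genes with this pattern was not computed. Some of the changes behind it were very small, such as 0.03 for Chpf in MLL-AF9-ieGFP at 48 h. The response in MLL-AF9-i139 minus that in MLL-AF9-ieGFP was -1.53 on the log2 scale for Chpf and -1.71 for B4galt6, and these differences were not tested, because both genes were selected on the MLL-AF9-i139 response. For Csgalnact2 it was -0.19, with log2 fold changes of -0.14, -0.12 and -0.01 by clone and 0.13 and 0.08 by time, and it was not called (edgeR adjusted p = 0.711). Groups of 2 or 3 libraries were too small for a check of single outlying libraries.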

How the results depend on the processing

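The DOX response in MLL-AF9-i139 gave 12 genes by edgeR without a block, 1556 by DESeq2, 562 with no filter on low counts, 6 with at least 10 counts in at least 3 libraries, 2381 with the replicate block, 3037 by DESeq2 with the replicate block and 1234 in a fit of all 10 libraries. Leaving out 1 clone gave 0 to 3981 genes: 1 without clone 1, 0 without clone 2 and 3981 without clone 3. Of the 8 members tested there, 0 were called, against 1 by DESeq2, 2 with the block, 2 by DESeq2 with the block, 1 in the fit of all 10 libraries and 0 to 2 with a clone left out. Of the other pathway genes 0 were called, against 9, 12, 18 and 5 in the same settings, 4 with no filter and 0 to 26 with a clone left out. In MLL-AF9-ieGFP DESeq2 and the unfiltered table each gave 1 gene in place of 0. The difference of the DOX responses gave 1 gene, 82 by DESeq2, 71 with no filter, 0 with the stricter filter, 38 with the block and 0 to 2011 with a library pair left out. Of members 0 to 3, and of other pathway genes 0 to 15, were then called, with 1 other pathway gene under the block and 1 with no filter. Untreated MLL-AF9-i139 against untreated MLL-AF9-ieGFP gave 9 genes, 45 by DESeq2, 37 with no filter and 0 to 30 with a library pair left out. The Chpf difference in that comparison was -0.21, ranged from -0.38 to 0.06 with a library pair left out and turned to 0.06 without clone 3. In the DOX response in MLL-AF9-i139, over the 8 members tested, the block changed no call other than those of Chpf2 and B4galt5. The cause of these shifts was not tested. Csgalnact1, Cers1 and B3gnt5 were measured at about 1 CPM, with fewer counts behind each value.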
